A study of Mus musculus with 6 samples.

Results

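The mitochondrial ribosomal protein genes are the nuclear genes whose symbols begin with Mrpl (named for the large subunit) or Mrps (named for the small subunit) followed by a number. They were taken from the count tables of a mouse embryonic fibroblast (MEF) experiment as all genes with such a symbol and at least 60 counts summed over the 6 libraries. The rule found 78 members among the 27179 counted genes. Every one of the 78 passed the minimum, with summed counts from 404 for Mrpl23 to 23127 for Mrpl54, and all 78 also passed the filter on low counts that left 14069 genes for testing. The rule uses only gene symbols and summed counts, but this set of genes was chosen with earlier results of these data known.

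The mitochondrial ribosome (mitoribosome) is the protein-rich ribosome that translates the mRNAs of the mitochondrial genome, which encode core subunits of the respiratory chain and ATP synthase. Its ribosomal RNAs are encoded in mitochondria, but its proteins are encoded in the nucleus, made in the cytosol and imported. Some of these proteins descend from bacterial ribosomal proteins, while others have no bacterial counterpart. By textbook assignment, 26 members belong to the small subunit and 51 to the large subunit, including Mrps30 and Mrps18a, which sit in the large subunit despite their names. The remaining member, Mrps36, is now known as a subunit of the 2-oxoglutarate dehydrogenase complex. By the classes used here, 46 members have a bacterial homologue and 31 are counted as specific to mitochondria. The latter include Mrps18a and Mrps18b, although they are related to a bacterial protein family.

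All 3 lines compared were MEFs that carried the genotype Cry1-/-, Cry2-/-, Per1-/-, Per2-/-, Nr1d1-/-, Nr1d2-/-, which removes the repressors of the circadian clock. The parental line was CPN-/-, and the derived lines CPN-/- CRY1 and CPN-/- CRY2 expressed exogenous mouse CRY1 or CRY2 from a viral promoter, so that the added gene was outside the feedback of the clock. According to the study's methods, each derived line was selected with blasticidin as a single colony after retroviral infection. Each line was represented by 2 libraries from separate RNA preparations of untreated cells, grown in DMEM with serum to near confluence. The experiment thus asked how either cryptochrome alone changes mRNA levels when PER and NR1D proteins are missing. With 1 clone per derived line, an effect of the cryptochrome and a difference between clones cannot be told apart, and p-values measure the spread between RNA preparations.

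Library totals were between 25957409 and 36106949 counts, and TMM normalization factors (edgeR's scaling for library composition) were between 0.991 and 1.01. Cry1 was highest in both CPN-/- CRY1 libraries and Cry2 was highest in both CPN-/- CRY2 libraries, at log2 fold changes of 0.57 (standard error, SE, 0.11, adjusted p = 0.0126) and 1.40 (SE 0.09, adjusted p = 5.84e-04) against CPN-/- in the test described below. Of 12 fibroblast markers, Col1a1, Col1a2, Fn1 and Vim were above 1000 CPM (counts scaled to a common library size) in every library, while Thy1 and Lum were below 0.3 CPM throughout. Of the 10 that could be tested, Dcn and Pdgfra were lower and Pdgfrb was higher in the CRY1 line than in CPN-/-, Dcn and Postn were higher in the CRY2 line than in CPN-/-, and Col1a2, Dcn, Pdgfra and Postn were lower in the CRY1 line than in the CRY2 line. Their median log2 fold changes in these comparisons were -0.10, 0.49 and -0.62. Dcn was low in every library, at 0.0324 to 2.24 CPM. Of 14 markers of epithelial, endothelial, leukocyte and muscle cells, 12 were too low to be tested, Epcam and Cd3e among them with no counts. The muscle marker Des (0.719 to 1.995 CPM) was lower in the CRY1 line than in CPN-/- (-1.13, adjusted p = 0.0269), and the endothelial marker Pecam1 (0.221 to 0.667 CPM) was lower in the CRY1 line than in the CRY2 line (-1.42, adjusted p = 0.034). The part of these marker differences in the members' values was not tested.

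Transcript level differed widely among the members. Measured as CPM per kilobase of the longest coding transcript and averaged over the 6 libraries, the median level was 31.3, and the middle 38 members lay between 16.5 and 47.9. Mrpl54, a mitochondria-specific protein of the large subunit, was highest at 214 CPM per kilobase. It was followed by Mrpl42, another mitochondria-specific large-subunit protein, at 109.6 and by Mrps6, a small-subunit protein with a bacterial homologue, at 104 CPM per kilobase. The next levels down, those of Mrpl20 (99.5) and Mrpl12 (93.6), were close to that of Mrps6.

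The lowest levels per kilobase were those of Mrpl23 (3.14), Mrpl48 (3.54) and Mrpl47 (7.29). Mrpl23 and Mrpl47 encode large-subunit proteins with bacterial homologues, and Mrpl48 encodes a mitochondria-specific protein of the central protuberance of the large subunit. The extremes differed 68.2-fold in mRNA level per kilobase. Mrpl23 has a near-identical copy, Mrpl23-ps1, and its counts are uncertain. The value for a gene depends on which transcript gives the length. With the merged length of all annotated exons, Mrpl54 was still highest at 157 and Mrpl23 still lowest at 0.473 CPM per kilobase, a wider range, whereas Mrpl42 was at 19.8 and Mrpl33 was at 5.39 in place of 82.6.

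**Figure D1:**
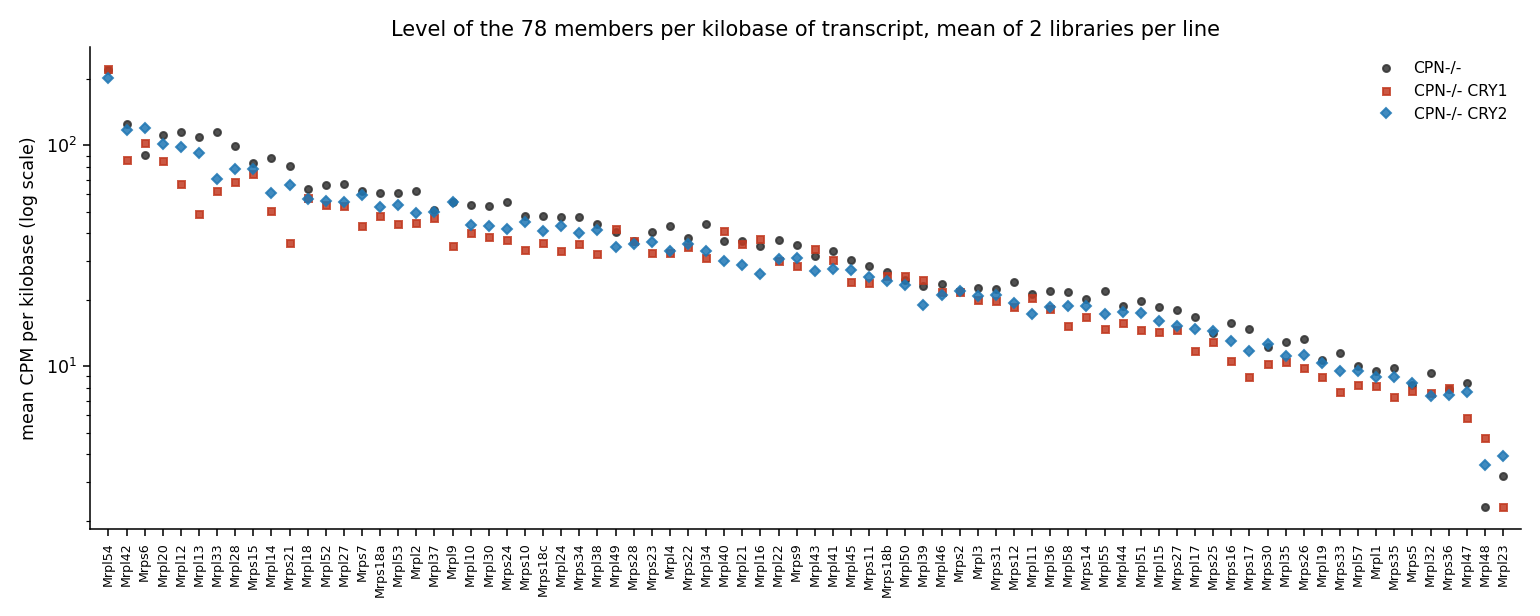
Mean CPM per kilobase of the longest coding transcript (log scale) of the 78 members, ordered by the mean over the 6 libraries, with 1 point per line (mean of 2 libraries). The order runs from Mrpl54 at 214 to Mrpl23 at 3.14 CPM per kilobase, and the 3 lines lie close together for most members, with CPN-/- CRY1 well below the others for Mrpl13 and Mrps21.

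The members together took 0.374% and 0.494% of all counts in the 2 CPN-/- libraries, 0.348% and 0.333% in those of the CRY1 line, and 0.367% and 0.392% in those of the CRY2 line. The shares of CPN-/- CRY1 were lowest, and the second CPN-/- library stood above the other 5. The mean shares were 0.434% ± 0.0848 (SD, n = 2), 0.340% ± 0.0103 (SD, n = 2) and 0.380% ± 0.0173 (SD, n = 2). Exact two-sided permutation tests over libraries gave p = 0.333 for CPN-/- CRY1 against CPN-/-, p = 0.667 for CPN-/- CRY2 against CPN-/- and p = 0.333 for CPN-/- CRY1 against CPN-/- CRY2. With 2 against 2 libraries, no p can be smaller than 0.333.

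The 2 libraries of the CPN-/- line differed in the members more than the 2 libraries of either derived line. Taken as log2 CPM of library 2 minus log2 CPM of library 1, the difference had a median over the members of 0.44 in CPN-/-, with 76 members higher in library 2 and 2 lower. The median over all tested genes was -0.02. The members' median was -0.06 in the CRY1 line, with 25 higher and 53 lower, and 0.10 in the CRY2 line, with 73 higher and 5 lower. The coefficient of variation of CPM between the 2 libraries had a median of 21.3% over the members for CPN-/-, 3.6% for the CRY1 line and 5.58% for the CRY2 line. The second CPN-/- library held the highest value of the 6 libraries for 69 of 78 members, and for 30.8% of all tested genes.

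Mrps16, a small-subunit protein with a bacterial homologue, differed most between the CPN-/- libraries. It was at 29.9 and 50.8 CPM there, at 28.3 and 25.97 CPM in CPN-/- CRY1 and at 31.6 and 35.1 CPM in CPN-/- CRY2. The first CPN-/- library lay within the range of the derived lines, and the second stood apart. Mrpl52, a mitochondria-specific large-subunit protein, followed with 23.6 and 37.9 CPM in CPN-/-, 25.9 and 23.9 CPM in CPN-/- CRY1, and 24.3 and 27.5 CPM in CPN-/- CRY2. The exceptions were Mrps2, a small-subunit protein with a bacterial homologue, which was at 45.9 and 44.9 CPM in the CPN-/- libraries, and Mrpl48, which was at 10.9 and 8.94 CPM.

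The largest differences in the derived lines were smaller or came from low counts. For CPN-/- CRY1, Mrps17, a small-subunit protein that binds ribosomal RNA, was at 42.8 and 47.8 CPM and Mrpl34, a small protein of the large subunit, was at 17.7 and 19.7 CPM. Mrps36 was at 6.28 and 4.86 CPM and Mrpl23 at 1.85 and 1.56 CPM. In CPN-/- CRY2, Mrpl23 was at 2.61 and 3.15 CPM, Mrpl30 at 69.2 and 83.1 CPM, Mrps31 at 33.4 and 30.0 CPM and Mrpl47 at 26.7 and 24.6 CPM. Mrpl23 and Mrps36 were the members with the lowest CPM.

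The difference between the CPN-/- libraries went with transcript length. Members were short, with a median of 1327.5 bases (463 to 7300) against 3034 bases for the 13238 tested genes with a known length. Across those genes the difference between the CPN-/- libraries had a Spearman rho with length of -0.66 (Pearson r of -0.57 with log10 length), and across the 78 members a rho of -0.40 (r of -0.37). The corresponding rho values were 0.18 over all genes and 0.28 over the members for the CRY1 line, and -0.27 and -0.34 for the CRY2 line. These correlations run across genes of the same libraries, which are not independent replicates, and are given as descriptions. The 26 shortest members (463 to 1056 bases) had a median difference of 0.51 in CPN-/-, the middle 26 (1068 to 1849 bases) of 0.35 and the 26 longest (1962 to 7300 bases) of 0.31.

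A difference remained when transcript length was taken into account. When each library's trend with length over all tested genes was removed by a loess curve, the members' median difference in CPN-/- was 0.21, against 0.03 for all genes, with 69 of 78 still above 0. It was -0.02 for the CRY1 line and 0.06 for the CRY2 line. The long member Mrpl17, whose annotated coding transcript has 7300 bases, was at 94.3 and 150 CPM in the CPN-/- libraries, and its difference grew from 0.67 to 1.15 after removal of the trend. Mrpl17 was chosen for mention after its value was seen. Other short-transcript genes moved likewise between the CPN-/- libraries. The median difference was 0.58 over 76 genes for cytosolic ribosomal proteins (median length 925.5 bases) and 0.54 over 79 tested genes for nuclear oxidative phosphorylation subunits (median length 891.5 bases). The remaining differences after removal of the trend were 0.31 and 0.22. The fibroblast markers had a median difference of -0.32 between the same libraries, and -0.05 with the trend removed. What else set the second CPN-/- library apart was not tested.

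**Figure D2:**
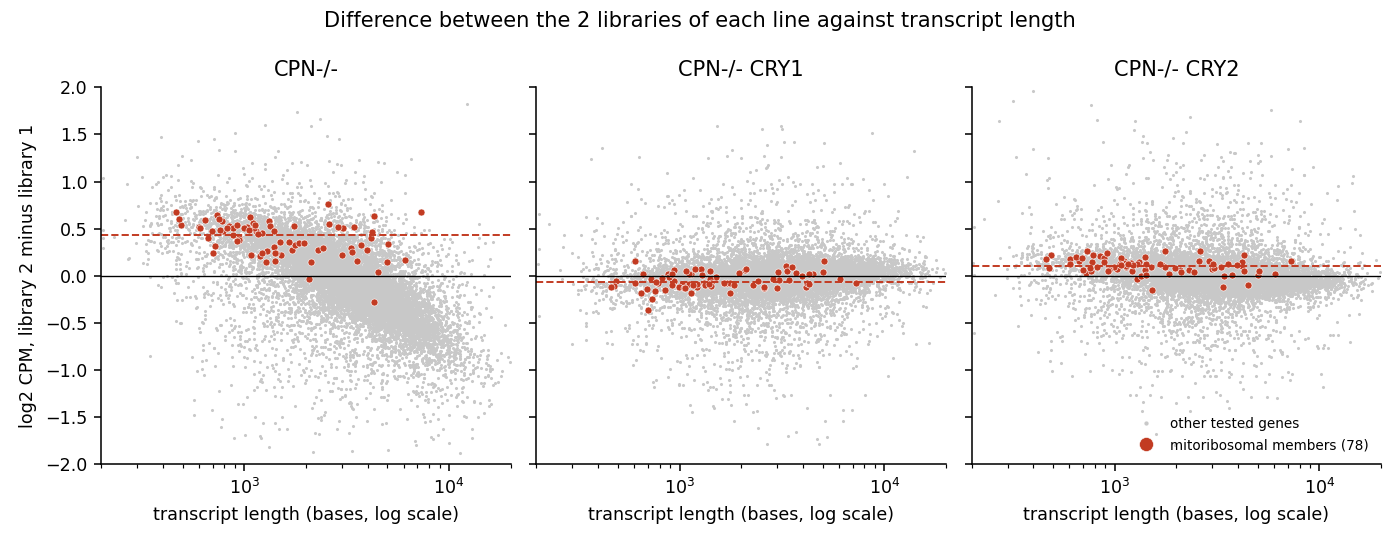
Difference in log2 CPM between the 2 libraries of each line (library 2 minus library 1) against transcript length in bases (log scale), with the 78 members in red, other tested genes in grey and the members' median as a dashed line. Genes beyond the axes are not drawn (115, 105 and 107 genes, no member). Members lie above 0 in CPN-/- (median 0.44), where the cloud of all genes slopes down with length, and near 0 in CPN-/- CRY1 (-0.06) and CPN-/- CRY2 (0.10).

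The comparison of CPN-/- CRY1 with CPN-/- asked which members changed with CRY1. Log2 fold changes (log2FC) were tested with edgeR's quasi-likelihood test in 1 model of all 6 libraries, with Benjamini-Hochberg adjustment over all 14069 genes, and members with an adjusted p under 0.05 were called. Of the 78 members, 15 fell and 1 rose in the CRY1 line. Over all tested genes 13.1% were called lower and 11.2% higher. The members' median log2FC was -0.32, against -0.01 for all genes, and 67 of 78 members were below 0. Without library 1 of CPN-/- the members' median was -0.50, and without library 2 it was -0.12. Both CPN-/- CRY1 libraries lay below both CPN-/- libraries for 51 members and above both for 2. By the same count, 34% of all tested genes were lower and 32.9% higher.

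The largest decreases were those of Mrps21 and Mrpl13. Mrps21, the counterpart of a bacterial small-subunit protein, was at 32.1 and 46.7 CPM in CPN-/-, 18.0 and 17.3 CPM in CPN-/- CRY1, and 29.8 and 34.9 CPM in CPN-/- CRY2. Both CPN-/- CRY1 libraries were below all others. Its log2FC in CPN-/- CRY1 was -1.16 (SE 0.19, adjusted p = 0.00725). Mrpl13, a large-subunit protein with a bacterial homologue, was at 113 and 155 CPM in CPN-/-, 61.9 and 58.2 CPM in CPN-/- CRY1, and 109 and 117 CPM in CPN-/- CRY2. Again only the CPN-/- CRY1 libraries were low. Its log2FC was -1.16 (SE 0.16, adjusted p = 0.00409). Mrpl13 (Gene ID 68537) lies on chromosome 15 from 55534095 to 55557312 on the minus strand of GRCm38, and Mrps21 (Gene ID 66292) on chromosome 3 from 95862634 to 95871514 on the minus strand. Mrps21 shares nearly identical sequence with the pseudogene Gm6181, so that its counts are uncertain. The exons of Mrpl13 overlap those of Mtbp on the opposite strand by 330 bases.

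Mrpl33, Mrpl14, Mrpl12 and Mrps17 followed. Mrpl33, a small protein of the large subunit with a bacterial homologue, was at 43.4 and 66.1 CPM in CPN-/-, 30.9 and 28.7 CPM in CPN-/- CRY1, and 32.8 and 34.8 CPM in CPN-/- CRY2. Here the libraries of both derived lines were below both parental libraries, and the log2FC in CPN-/- CRY1 was -0.88 (SE 0.19, adjusted p = 0.0195). Mrpl14, which binds ribosomal RNA at the subunit interface, was at 45.2 and 68.0 CPM in CPN-/-, 34.8 and 30.5 CPM in CPN-/- CRY1, and 36.5 and 41.9 CPM in CPN-/- CRY2, with a log2FC of -0.79 in CPN-/- CRY1 (SE 0.20, adjusted p = 0.0296).

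Mrpl12 encodes a protein of the stalk of the large subunit, which recruits translation factors. It was at 122 and 182 CPM in CPN-/-, 90.6 and 86.2 CPM in CPN-/- CRY1, and 123 and 136 CPM in CPN-/- CRY2. The CPN-/- CRY1 libraries were again the lowest, and the log2FC was -0.78 (SE 0.18, adjusted p = 0.0249). Mrps17 was at 66.2 and 83.5 CPM in CPN-/-, 42.8 and 47.8 CPM in CPN-/- CRY1, and 58.5 and 60.4 CPM in CPN-/- CRY2. Its log2FC in CPN-/- CRY1 was -0.72 (SE 0.13, adjusted p = 0.0113).

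The other 9 members that fell were Mrpl9, Mrps24, Mrpl55, Mrpl47, Mrpl42, Mrps7, Mrpl38, Mrpl10 and Mrpl4, with log2FC values from -0.65 for Mrpl9 to -0.40 for Mrpl4. Mrpl10 encodes the base of the stalk to which Mrpl12 attaches. It was at 83.3 and 100.6 CPM in CPN-/-, 69.9 and 66.5 CPM in CPN-/- CRY1, and 71.4 and 77.4 CPM in CPN-/- CRY2 (log2 fold change in CPN-/- CRY1 of -0.43, SE 0.12, adjusted p = 0.0415). Mrps7, a small-subunit protein near the path of the mRNA, was at 107 and 137 CPM in CPN-/-, 83.3 and 85.3 CPM in CPN-/- CRY1, and 114 and 121 CPM in CPN-/- CRY2 (log2 fold change in CPN-/- CRY1 of -0.53, adjusted p = 0.0283). For each of the 15 members that fell, the CPN-/- CRY1 libraries were below both CPN-/- libraries. The calls came from these same libraries, so this is a description and no separate support.

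Mrpl48 was the only called member that rose. It was at 10.9 and 8.94 CPM in CPN-/-, 20.9 and 19.7 CPM in CPN-/- CRY1, and 14.1 and 16.5 CPM in CPN-/- CRY2. The 3 lines did not overlap, with CPN-/- lowest and CPN-/- CRY1 highest. Its log2FC in CPN-/- CRY1 was 1.03 (SE 0.14, adjusted p = 0.00432). Mrpl48 has a nearly identical pseudogene copy, Mrpl48-ps, and its exons overlap those of Rab6a on the opposite strand by 708 bases. Since the strand setting of the counting is not given, reads of such pairs of genes cannot be told apart with certainty. Among the called members named above, the same holds for Mrpl47 (1068 bases, with Actl6a and Ndufb5), Mrpl12 (200 bases, with Gm16755) and Mrpl14 (106 bases, with Tmem63b). It also holds for Mrps7 (246 bases, with Gga3 and Mif4gd), Mrpl10 (240 bases, with Gm11574) and Mrpl9 (157 bases, with Oaz3). On their own strand, Mrpl33 overlaps Gm43809 by 261 bases and Mrps24 overlaps Urgcp by 226 bases. Mrpl42 has a near-identical copy, Gm6419. Of members not called here, Mrps6 overlaps Gm49711 and Slc5a3 on its own strand by 305 bases. Mrps18b (638 bases, with Gm16279) and Mrps30 (623 bases, with B430218F22Rik) have overlaps on the opposite strand.

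**Figure D3:**
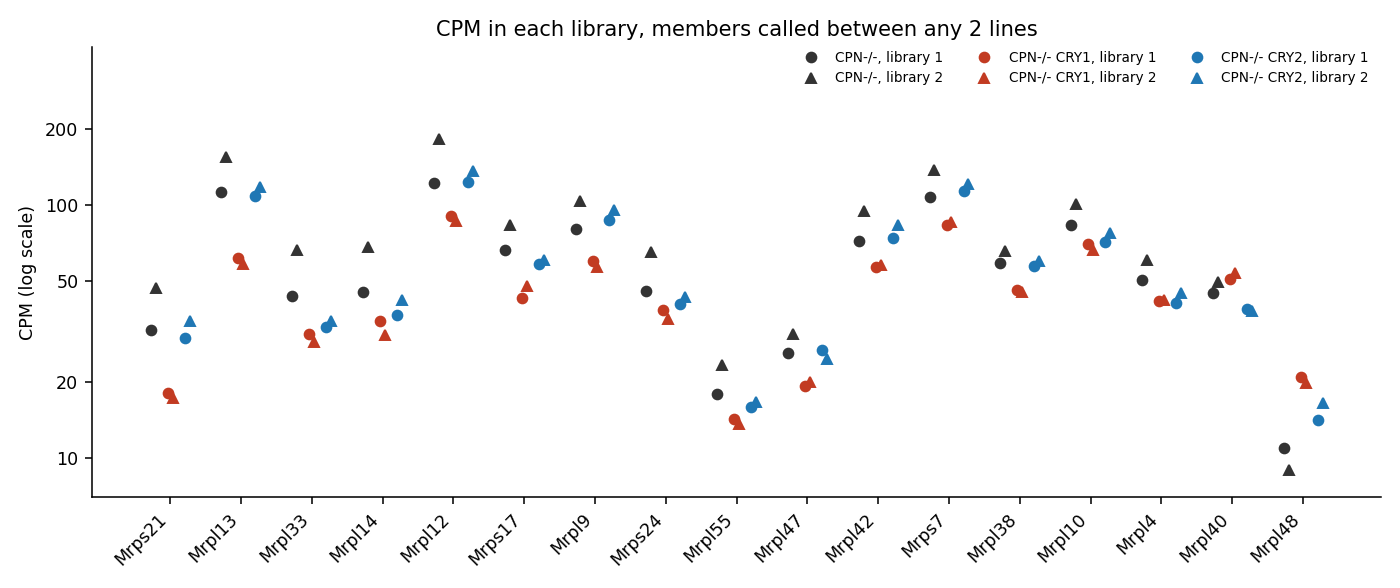
CPM (log scale) in each of the 6 libraries for the 17 members called in any comparison, ordered by log2FC in CPN-/- CRY1 against CPN-/-, with circles for library 1 and triangles for library 2. The red CPN-/- CRY1 points lie lowest for Mrps21 (18.0 and 17.3 CPM) and Mrpl13 (61.9 and 58.2 CPM) and highest for Mrpl48 (20.9 and 19.7 CPM), and library 2 of CPN-/- lies above library 1 for all but Mrpl48.

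By place in the ribosome, 4 of 26 small-subunit members and 11 of 51 large-subunit members fell in CPN-/- CRY1, and the medians were -0.32 and -0.33. Of the 46 members with a bacterial homologue, 13 fell and none rose, with a median of -0.40. Of the 31 mitochondria-specific members, Mrpl42 and Mrpl38 fell and Mrpl48 rose, with a median of -0.26. Over all tested genes, 13.1% were called lower and 11.2% higher. With the length trend removed, 13 members with a bacterial homologue were lower and 3 higher, with a median of -0.23. By that fit, 3 mitochondria-specific members were lower and 5 higher, with a median of -0.03, where 17.6% of all tested genes were lower and 22.2% higher. The difference between these classes was not tested. Leaving out either CPN-/- library kept the sign of all 16 called members. Leaving out either CPN-/- CRY1 library left 1 of the 16 calls (Mrpl13 without library 1 and Mrpl48 without library 2), and leaving out either CPN-/- CRY2 library left 4 (Mrpl13, Mrps17, Mrps21 and Mrpl48), in models with fewer libraries to estimate the spread.

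Removing the length trend moved the members' median in CPN-/- CRY1 from -0.32 to -0.16, against 0.03 for all genes. With the trend removed, 16 members were lower and 8 higher, where 17.6% of all tested genes were lower and 22.2% higher. Of the 16 calls made without it, 15 remained with the same sign, among them Mrpl13 at -0.89 (adjusted p = 4.97e-05) and Mrps21 at -0.80 (adjusted p = 1.60e-04). Mrpl4, a large-subunit protein near the exit tunnel, was lost (-0.15, adjusted p = 0.118). Mrps35 and Mrpl19 were gained as lower, at -0.50 (adjusted p = 0.0398) and -0.38 (adjusted p = 0.0397). The 7 gained as higher were Mrpl16, Mrpl40, Mrpl43, Mrpl49, Mrpl54, Mrps28 and Mrps6. For Mrps6, at 62.4 and 90.2 CPM in CPN-/- and 90.9 and 81.8 CPM in CPN-/- CRY1, the log2FC was 0.18 (adjusted p = 0.479) without and 0.50 (adjusted p = 0.00197) with removal of the trend. Whether the trend of CPN-/- library 2 is technical was not tested.

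**Figure D4:**
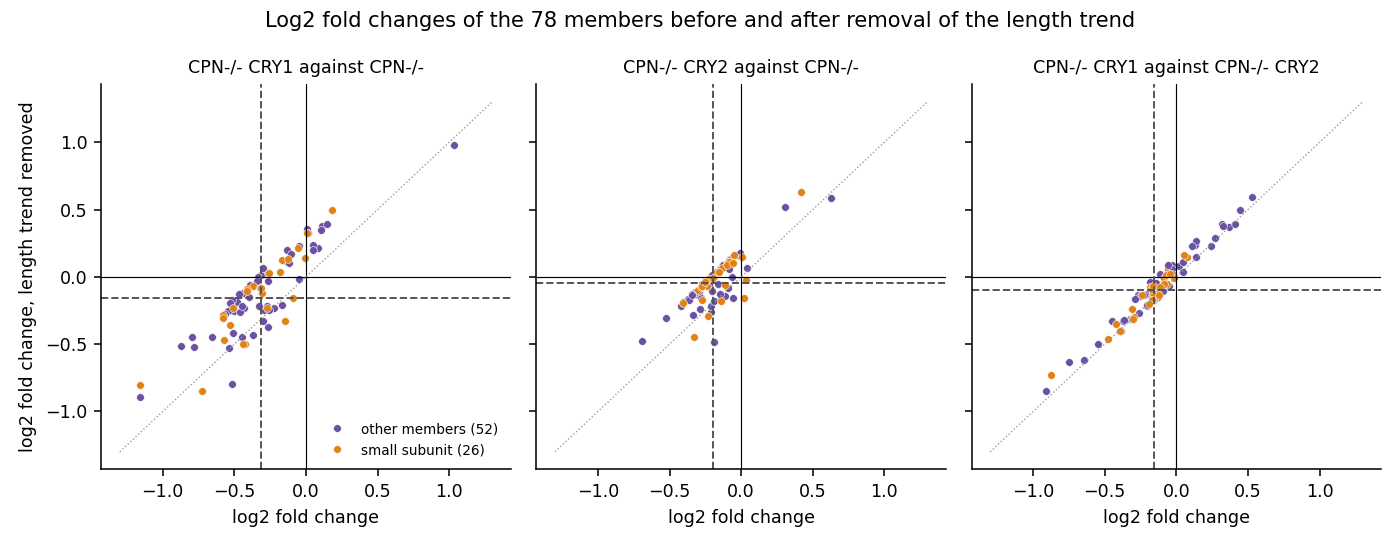
Log2 fold change of the 78 members before (x axis) and after (y axis) removal of the length trend in the 3 comparisons, with small-subunit members in orange, medians as dashed lines and equality as a dotted line. In CPN-/- CRY1 against CPN-/- the median moves from -0.32 to -0.16, in CPN-/- CRY2 against CPN-/- from -0.19 to -0.05, and between the derived lines from -0.16 to -0.10.

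The comparison of CPN-/- CRY2 with CPN-/- asked the same of CRY2, and no member was called. Over all tested genes 4.08% were called lower and 2.58% higher. At an unadjusted p under 0.05, edgeR's test gave 10 of 78 members, 9 of them lower, and 3436 of all 14069 tested genes. DESeq2's Wald test called 1 member lower and 1 higher after adjustment, where 693 of all tested genes were lower and 632 higher. The members' median log2FC was -0.19, against -0.01 for all genes, and 71 of 78 were below 0. Both CPN-/- CRY2 libraries lay below both CPN-/- libraries for 21 members and above both for 2, where 27.2% of all tested genes were lower and 28% higher. The comparison shares its CPN-/- libraries with the one above, so that the 2 sets of values are not independent.

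Without library 2 of CPN-/-, the members' median in this comparison was 0.03, and without library 1 it was -0.40. Each of these fits left CPN-/- with a single library, and counts of members called in them are not set out here. The direction for the members as a group thus rested on the second CPN-/- library. Mrpl48 came nearest to a call, with a log2FC of 0.63 (SE 0.14, adjusted p = 0.053). The lowest value was that of Mrpl33 at -0.69 (SE 0.19, adjusted p = 0.0902). With the length trend removed, Mrpl33 was called lower at -0.48 (adjusted p = 0.00677), and Mrpl48 and Mrps6 were called higher at 0.59 (adjusted p = 0.00865) and 0.63 (adjusted p = 0.0013). Mrps6 was at 94.5 and 109 CPM in CPN-/- CRY2, above both CPN-/- libraries. With the trend removed, 7.28% of all tested genes were lower and 10.3% higher.

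The direct comparison of CPN-/- CRY1 with CPN-/- CRY2 does not use the CPN-/- libraries for its difference. In it Mrpl13, Mrps21 and Mrpl9 were lower and Mrpl40 was higher, where 8.57% of all tested genes were lower and 7.72% higher. The members' median log2FC was -0.16, against -0.0046 for all genes. The libraries of the 2 lines did not overlap for 58 members, with CPN-/- CRY1 lower for 47 and higher for 11, where 36.9% of all tested genes were lower and 36.4% higher. With the length trend removed, the median was -0.10, and 11 members were lower and 8 higher, where 15.7% of all tested genes were lower and 16.3% higher. All 4 calls remained, and the 15 gained included Mrpl23 (-0.63, adjusted p = 0.0407), Mrpl12 (-0.50, adjusted p = 0.00666) and Mrps7 (-0.46, adjusted p = 0.00268) as lower and Mrpl16 (0.60, adjusted p = 7.17e-04) as higher. Mrpl16, a large-subunit protein with a bacterial homologue, was at 45.4 and 42.4 CPM in CPN-/- CRY1 and at 29.1 and 31.8 CPM in CPN-/- CRY2.

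Between the derived lines the difference of Mrpl13 was -0.91 (SE 0.16, adjusted p = 0.0109) and that of Mrps21 was -0.88 (SE 0.19, adjusted p = 0.0227), as their values above show. Mrpl9, a large-subunit protein with a bacterial homologue, was at 80.4 and 103 CPM in CPN-/-, 59.998 and 56.7 CPM in CPN-/- CRY1, and 87.5 and 95.4 CPM in CPN-/- CRY2. Its log2FC between the derived lines was -0.65 (SE 0.14, adjusted p = 0.0221). Mrpl40, a mitochondria-specific protein of the central protuberance, was at 44.8 and 49.7 CPM in CPN-/-, 51.1 and 53.6 CPM in CPN-/- CRY1, and 38.9 and 38.0 CPM in CPN-/- CRY2. Its difference between the derived lines was 0.44 (SE 0.10, adjusted p = 0.0266). These calls kept their sign when any library was left out, and all 4 were lost without any library of a derived line. The CPN-/- libraries enter only through the estimate of the spread. With only the 4 libraries of the derived lines in the model, 38 members were lower and 8 higher. In that model 3365 of all 13760 tested genes were lower and 3473 higher.

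These 4 members lie on chromosomes 15, 3, 3 and 16, whose genes as a whole had shifted medians between the derived lines. The median log2FC of all tested genes between CPN-/- CRY1 and CPN-/- CRY2 was -0.43 on chromosome 15 (530 genes), -0.40 on chromosome 3 (638 genes), 0.35 on chromosome 16 (420 genes) and 0.46 on chromosome 19 (473 genes). On the other chromosomes it was between -0.16 and 0.06. The only member on chromosome 15 was Mrpl13, whose value of -0.91 lay beyond its chromosome's median. On chromosome 3, Mrpl9 (-0.65) and Mrps21 (-0.88) lay beyond the median and Mrpl47 (-0.39) and Mrpl24 (-0.38) close to it, while Mrps28 was at 0.06.

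On chromosome 16, Mrpl40 (0.44) and Mrpl39 (0.37) were near the chromosome's median and Mrps6 was at -0.24. All 5 members on chromosome 19, Mrpl11, Mrpl16, Mrpl21, Mrpl43 and Mrpl49, were above 0 in this comparison, from 0.24 to 0.53. Of the 64 members on other chromosomes, none was called between the derived lines, beside 8.57% lower and 7.72% higher over all tested genes. Against CPN-/-, 11 of the 64 fell and 1 rose in the CRY1 line, beside 13.1% and 11.2% over all tested genes. With the length trend removed, 6 of the 64 were lower and 2 higher between the derived lines, beside 15.7% and 16.3%. These shares include the genes on chromosomes 3, 15, 16 and 19, and the counts of the 64 were not tested against these shares. In CPN-/- CRY1 against CPN-/-, the medians of all tested genes on chromosomes 3, 15, 16 and 19 were -0.28, -0.36, 0.27 and 0.31. In CPN-/- CRY2 against CPN-/- they were 0.11, 0.05, -0.09 and -0.17, so both derived lines entered the difference between them. The part of the chromosome-wide shifts in the values of these members was not tested.

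**Figure D5:**
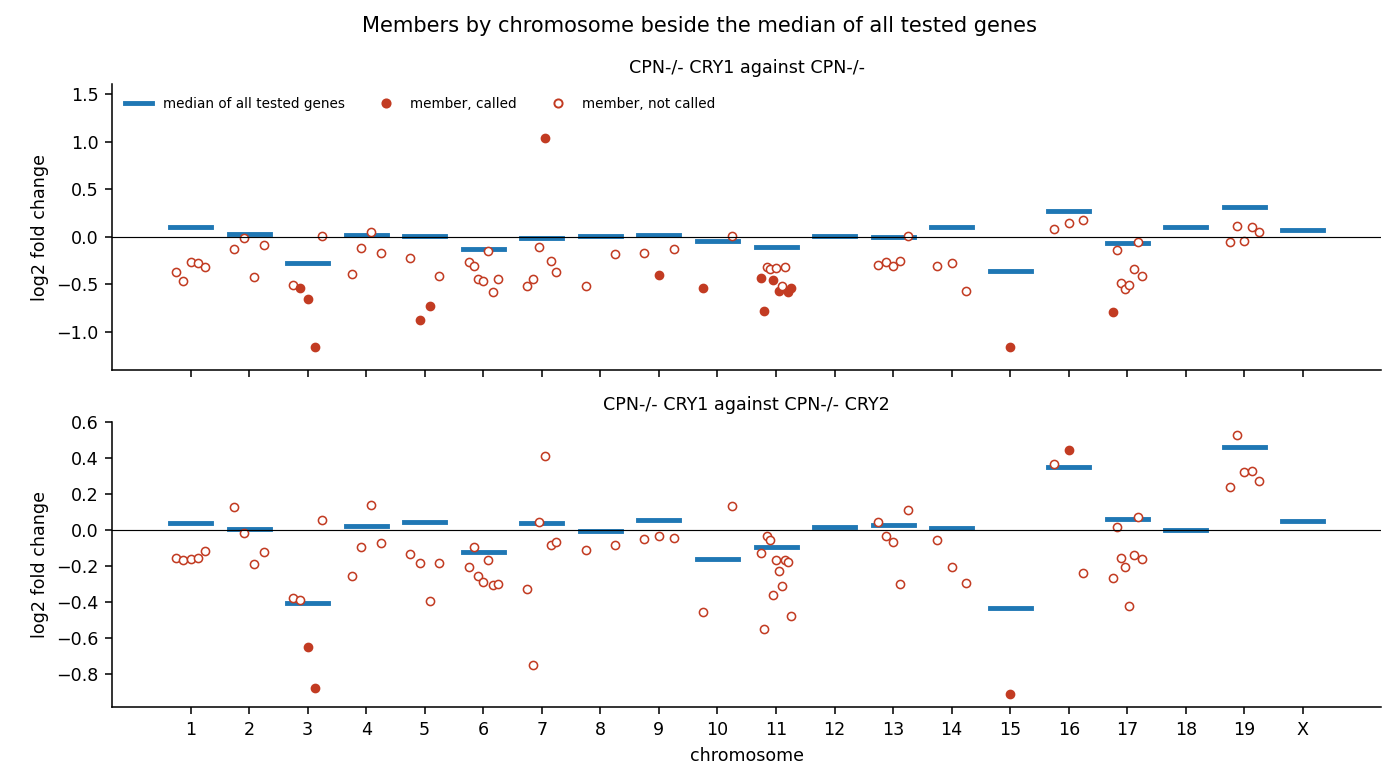
Log2 fold change of each member (circles, filled where called) by chromosome, beside the median of all tested genes on that chromosome (blue bars), for CPN-/- CRY1 against CPN-/- (upper) and against CPN-/- CRY2 (lower). In the lower panel every filled circle lies on chromosome 3, 15 or 16, where the bars stand at -0.40, -0.43 and 0.35, and the 5 members on chromosome 19 lie above 0 near a bar at 0.46.

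Several members with known roles in decoding, assembly or disease passed no test in any of the 3 comparisons. Mrps12, whose protein contributes to the decoding centre, was at 18.1 and 24.3 CPM in CPN-/-, 16.2 and 16.5 CPM in CPN-/- CRY1, and 16.015 and 18.3 CPM in CPN-/- CRY2. Only library 2 of CPN-/- stood apart from the rest. The log2FC values of Mrps12 for the CRY1 and CRY2 lines against CPN-/- were -0.37 (SE 0.16, adjusted p = 0.132) and -0.30 (SE 0.16, adjusted p = 0.287). Mrpl58, a peptidyl-tRNA hydrolase built into the large subunit that releases stalled chains, was at 45.6 and 66.8 CPM in CPN-/-, 41.0 and 37.8 CPM in CPN-/- CRY1, and 44.4 and 53.2 CPM in CPN-/- CRY2. Its log2FC in CPN-/- CRY1 against CPN-/- was -0.51 (SE 0.19, adjusted p = 0.0912).

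Mrpl11, at the binding site of translation factors, was at 53.1 and 75.7 CPM in CPN-/-, 63.2 and 61.2 CPM in CPN-/- CRY1, and 51.1 and 54.2 CPM in CPN-/- CRY2. The CPN-/- CRY1 libraries lay between the CPN-/- libraries. Mutations in Mrps22, Mrps34 and Mrpl44 are known causes of mitochondrial disease, and Mrpl44 is related to RNase III. Their log2FC values in CPN-/- CRY1 against CPN-/- were -0.13 (adjusted p = 0.416), -0.41 (adjusted p = 0.14) and -0.26 (adjusted p = 0.149). For Mrpl41, a mitochondria-specific protein of the large subunit, the value was -0.13 (adjusted p = 0.617), and for Mrps30 it was -0.26 (adjusted p = 0.17).

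The paralogues Mrps18a, Mrps18b and Mrps18c are related to a single bacterial protein. Mrps18a belongs to the large subunit and the others to the small subunit. Mrps18a was at 44.4 and 63.2 CPM in CPN-/-, 42.7 and 42.2 CPM in CPN-/- CRY1, and 44.4 and 49.1 CPM in CPN-/- CRY2. Mrps18b was at 26.6 and 31.1 CPM in CPN-/-, 27.2 and 28.2 CPM in CPN-/- CRY1, and 24.6 and 28.1 CPM in CPN-/- CRY2. Mrps18c was at 32.6 and 46.3 CPM in CPN-/-, 29.8 and 29.3 CPM in CPN-/- CRY1, and 32.4 and 34.6 CPM in CPN-/- CRY2. None was called, with log2FC values in CPN-/- CRY1 against CPN-/- of -0.34, -0.06 and -0.41. Per kilobase of transcript, averaged over the 6 libraries, Mrps18a was at 53.9, Mrps18c at 41.7 and Mrps18b at 25.6 CPM. Mrps36 was at 5.09 and 6.02 CPM in CPN-/-, 6.28 and 4.86 CPM in CPN-/- CRY1, and 5.07 and 5.30 CPM in CPN-/- CRY2, and the lines overlapped. It shares nearly identical sequence with Gm16149, Gm3544, Mrps36-ps1 and Mrps36-ps2, so that its counts are uncertain.

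Other genes of mitochondrial translation were examined in CPN-/- CRY1 against CPN-/-, where 13.1% of all tested genes were lower and 11.2% higher. The lists are short, and their counts were not tested against these shares. Of 5 mitoribosomal proteins with other symbols, Dap3, a small-subunit GTP-binding protein, fell by 0.60 on the log2 scale (adjusted p = 0.0246) and Ptcd3 fell by 0.49 (adjusted p = 0.0138), and none rose. Of 15 tested translation factors, 2 fell and 1 rose. Taco1, which promotes translation of the COX1 mRNA, fell by 0.55 (adjusted p = 0.0121) and the elongation factor Gfm1 fell by 0.33 (adjusted p = 0.0401), while the release factor Mtrf1l rose by 0.37 (adjusted p = 0.0388). Of 20 mitochondrial aminoacyl-tRNA synthetases and amidotransferase subunits, Gatb fell by 0.67 (adjusted p = 0.0189) and Tars2 fell by 0.60 (adjusted p = 0.00817). Dap3, Gatb, Tars2 and Gfm1 also lie on chromosome 3. Of 25 assembly and rRNA modification factors, none was called.

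Among 11 genes of mitochondrial transcription and DNA maintenance, Ssbp1 fell by 0.74 (adjusted p = 0.0298), and Mterf2 and Twnk rose by 1.05 (adjusted p = 0.00314) and 0.35 (adjusted p = 0.0442). Among 12 regulators of mitochondrial biogenesis, Pprc1, a relative of the coactivator PGC-1alpha, rose by 0.72 (adjusted p = 0.0251), Gabpa, the DNA-binding subunit of an ETS-family factor, rose by 0.68 (adjusted p = 0.00963), and Tfeb, a regulator of lysosomal genes, fell by 0.52 (adjusted p = 0.0208). In all, 1 of the 12 fell and 3 rose. Gabpa was at 136 and 111 CPM in CPN-/-, 195 and 203 CPM in CPN-/- CRY1, and 140 and 132 CPM in CPN-/- CRY2, and it lies on chromosome 16. Of 12 tested mitochondrially encoded mRNAs, which the mitoribosome translates, ND2 fell by 0.64 (adjusted p = 0.027), and ND5 and ND6 rose by 0.50 (adjusted p = 0.0331) and 0.39 (adjusted p = 0.0408). With the length trend removed, ND2 was not called (-0.38, adjusted p = 0.144), none of the 12 was called lower and 4 were called higher, and their median went from -0.12 to 0.15. In CPN-/- CRY2 against CPN-/-, 1 gene of all these lists was called, the nuclear receptor Esrra, which fell by 0.59 (adjusted p = 0.0305).

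Between the derived lines, where 8.57% of all tested genes were lower and 7.72% higher, 3 synthetase-list genes on chromosome 3 were lower in the CRY1 line, Tars2 (-0.78, adjusted p = 0.00377), Gatb (-0.72, adjusted p = 0.0192) and Wars2 (-0.54, adjusted p = 0.0256). Yars2 on chromosome 16, named after its value was seen, was higher (0.38, adjusted p = 0.0493). Taco1 on chromosome 11 (-0.55, adjusted p = 0.0155), Gfm1 on chromosome 3 (-0.37, adjusted p = 0.0342) and Ptcd3 on chromosome 6 (-0.43, adjusted p = 0.0265) were lower there too. Esrra (0.65, adjusted p = 0.0115) and Twnk (0.49, adjusted p = 0.0197) on chromosome 19 were higher, where the median of all tested genes on that chromosome was 0.46 and Twnk overlaps Mrpl43 on the opposite strand, as were Gabpa on chromosome 16 (0.55, adjusted p = 0.0245) and Mterf2 on chromosome 10 (0.50, adjusted p = 0.0433). None of the assembly factors or mitochondrially encoded mRNAs was called.

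Compared with the most similar gene families, the members' median stood between that of all genes and those of 2 families of shorter transcripts. In CPN-/- CRY1 against CPN-/-, 11 of 76 cytosolic ribosomal protein genes fell with a median log2FC of -0.45, and 15 of 79 tested oxidative phosphorylation genes fell with a median of -0.44, while none rose in either family. The called genes furthest from 0 were the complex I subunits Ndufa6 (-1.15) and Ndufb9 (-1.14), the complex IV subunit Cox6c (-1.10), and Rpl37 (-1.02), Rpl8 (-0.95) and Rpl30 (-0.89) in the cytosolic ribosome, all on chromosome 15, as is Mrpl13, where the median of all tested genes was -0.36. Between the derived lines, Ndufb9 (-0.96), Cox6c (-0.90), Ndufa6 (-0.88), Rps27 on chromosome 3 (-0.89) and Rpl8 (-0.64) were lower. After removal of the length trend, the 3 medians were -0.16 for the members, -0.18 for cytosolic ribosomal proteins and -0.13 for oxidative phosphorylation. No test of the difference between the families was made.

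Promoters were examined because cryptochromes repress CLOCK-BMAL1, which binds the E-box CACGTG. RefSeq (GRCm38.p6) promoter sequences, from 250 bases before to 50 bases after the start site, were given for 69 of the 78 members. On either strand, CACGTG was present in those of 5 members (7.25%), in 8.09% of the promoters of 27025 genes and in 11.6% of the promoters of 10411 tested genes. To set these sequences beside the mRNA values of their genes, 80 bases around each of the 5 E-boxes are given with their genomic windows. The E-box is in capitals, as are any other motifs searched.
Mrpl2, chr17:46646053-46646132, plus strand: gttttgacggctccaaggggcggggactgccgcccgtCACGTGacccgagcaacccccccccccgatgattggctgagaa
Mrpl20, chr4:155802798-155802877, plus strand: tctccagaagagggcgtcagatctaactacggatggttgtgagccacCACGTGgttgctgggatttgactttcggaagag
Mrpl36, chr13:73330929-73331008, plus strand: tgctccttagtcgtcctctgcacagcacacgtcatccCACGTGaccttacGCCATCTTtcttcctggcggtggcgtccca
Mrpl37, chr4:107066986-107067065, minus strand: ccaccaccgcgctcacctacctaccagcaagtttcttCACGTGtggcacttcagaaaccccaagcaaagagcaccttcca
Mrps18c, chr5:100798563-100798642, plus strand: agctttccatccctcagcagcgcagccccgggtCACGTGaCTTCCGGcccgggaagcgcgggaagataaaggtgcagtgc

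None of these 5 members was called in any comparison, with or without removal of the length trend. Mrpl2, a large-subunit protein with a bacterial homologue, was at 52.8 and 75.4 CPM in CPN-/-, 47.2 and 44.6 CPM in CPN-/- CRY1, and 49.8 and 52.6 CPM in CPN-/- CRY2. Its log2FC values against CPN-/- were -0.48 (adjusted p = 0.0779) for the CRY1 line and -0.32 (adjusted p = 0.276) for the CRY2 line. The values against CPN-/- in the CRY1 line were -0.39 for Mrpl20, -0.27 for Mrpl36, -0.12 for Mrpl37 and -0.41 for Mrps18c. None of the 13 members called in CPN-/- CRY1 against CPN-/- that have a promoter sequence held a CACGTG in it. This says only that these letters are not in that window.

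The shares of other motifs were compared with those in all promoters and in the most similar families, as descriptions without a test. CCGGAAG, the core of ETS-family sites, was present in 37.7% of the 69, in 9.93% of all promoters and in 19.8% of those of tested genes. It was present in 41.1% of 56 cytosolic ribosomal protein promoters and in 26.2% of 65 oxidative phosphorylation promoters. AAGATGGC, a YY1 motif, was present in 17.4%, 3.19% and 5.22%, and GCATGCGC, an NRF1 motif, in 11.6%, 3.05% and 5.89%. The YY1 motif was in 8.93% of the cytosolic ribosomal and 15.4% of the oxidative phosphorylation promoters, and the NRF1 motif in 5.36% and 15.4%. TATAAA was present in 7.25% of the members' promoters, 15.7% of all and 8.67% of those of tested genes. Each motif was searched on both strands and counted once per gene, whether or not it overlapped another. Mrpl33 was the lowest member in CPN-/- CRY2 and the third lowest in CPN-/- CRY1. Its promoter is shown as an example of an NRF1 motif directly before a start site, with that motif in capitals. It also holds the ETS motif CCGGAAG from position -3, which crosses the start site and is not in capitals in the window shown.
Mrpl33, chr5:31613871-31613950, plus strand: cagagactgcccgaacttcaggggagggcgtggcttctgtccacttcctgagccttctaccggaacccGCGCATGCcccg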

How the data were processed

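The mRNA of 3 MEF lines was sequenced, with 2 libraries per line. According to the study's methods, paired-end reads of stranded mRNA libraries were aligned by the authors to mm10 (RNA STAR) and assigned to genes (featureCounts). The deposited values are these raw counts, in a table for each library, by NCBI Gene identifier and without normalization. The gene annotation, strand setting and treatment of reads with several matches are not given in the sources used here.

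Symbols and positions came from RefSeq (GRCm38.p6), and lengths from the longest coding transcript in GENCODE vM21, known for 13238 of 14069 tested genes (94.1%). Near-identical sequence (at least 95% over 150 bases, by BLAST+) with another gene was found for 24 members. Tests used R 4.3.3 and edgeR 4.0.16 (filterByExpr with a minimum count of 10 and a minimum total of 15, TMM, robust quasi-likelihood fit of all 6 libraries with the line as the only term, two-sided, Benjamini-Hochberg over all tested genes). CPM were computed with TMM factors, and differences between libraries with a prior count of 2. The length trend was removed as a loess offset per library (span 0.5). The steps were also run on simulated counts, with and without a trend in the same length that was then removed. Such counts cannot show the effect of uncertain transcript lengths. Replicate numbers are not stated to pair the libraries and were not used as pairs in the main fit. The correlations of the differences between libraries (library 2 minus library 1) over all tested genes were -0.0791 between CPN-/- and CPN-/- CRY1, 0.141 between CPN-/- and CPN-/- CRY2 and -0.0296 between the derived lines.

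The members, gene lists and tests were chosen with earlier results of these data known. Named were the called members (up to 6 per direction and comparison), the 3 highest and 3 lowest levels per length, the 2 largest differences between libraries per line and direction, up to 4 calls per comparison that changed with length, members of fixed roles, and up to 3 called genes per list and comparison. Lengths from other transcript definitions were added after seeing the data.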

Additional observations from a re-analysis of the deposited data

Results flagged for a closer look

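The log2 fold changes of the derived lines against their shared CPN-/- parent differed for 4 members, by edgeR's test of CPN-/- CRY1 against CPN-/- CRY2 with Benjamini-Hochberg adjustment. The difference was -0.91 for Mrpl13 (adjusted p = 0.0109), -0.88 for Mrps21 (adjusted p = 0.0227), -0.65 for Mrpl9 (adjusted p = 0.0221) and 0.44 for Mrpl40 (adjusted p = 0.0266). All 4 kept their sign with any library left out and lost the call without any library of a derived line. Groups of 2 libraries are too small for a search for outlying libraries.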

How the results depend on the processing

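DESeq2 size factors, library size only, upper-quartile scaling and a filter of 10 counts in every library left every count of members called within 1.5 times and every median direction in place. In CPN-/- CRY1 against CPN-/-, the members called lower (15) were 3 with only the 4 libraries compared and 2 at an adjusted p under 0.01. With only those 4 libraries, 1020 of all 13945 tested genes were lower. The members called higher (1) were 8 with the length trend removed, with or without the block or a GC term. They were 2 with median coding length, 4 with merged exon length and 0 without members that have near-identical copies. Of all 14069 tested genes, 3121 were higher with the trend alone removed, 2627 with median coding length and 2692 with merged exon length. In CPN-/- CRY2 against CPN-/-, where none was called, 1 was lower and 1 higher without a filter and by DESeq2's Wald test. Without a filter, 716 of all 19741 tested genes were lower and 512 higher. With the length trend removed, alone, with the block or with a GC term, 1 member was lower and 2 were higher. The same held with median coding length, and with merged exon length 0 were lower and 2 higher. Of all 14069 tested genes, 1024 were lower and 1443 higher with the trend alone removed. The counts were 752 and 852 with median coding length, and 773 and 967 with merged exon length. With 1 library left out, 0 to 66 were lower and 0 to 4 higher.

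Between the derived lines (3 lower, 1 higher), 5 were lower and 2 higher without a filter, and 7 and 2 by DESeq2's Wald test. Without a filter, 1311 of all 19741 tested genes were lower and 1249 higher. By the Wald test, 1307 of all 14069 were lower and 1239 higher. With only the 4 libraries compared there were 38 and 8, where 3365 and 3473 of all 13760 tested genes were called. There were 11 and 8 with the length trend removed, 11 and 9 with a GC term added, and 8 and 2 with median coding length. With merged exon length there were 8 and 7. Of all 14069 tested genes, 2204 were lower and 2299 higher with the trend removed, and 2255 and 2376 with a GC term added. The counts were 1733 and 1749 with median coding length, and 1787 and 1835 with merged exon length. At an adjusted p under 0.01, or without members on chromosomes 3, 15, 16 and 19, there were 0 and 0. With 1 library left out, 0 to 38 were lower and 0 to 8 higher. The members' median difference between the CPN-/- libraries (0.44) was 0.21 with the length trend removed, 0.20 with length and GC, 0.30 with merged exon length and 0.33 with median coding length. The fits with median coding length and merged exon length were chosen after seeing the data.

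The replicate numbers are not stated to pair the libraries. With the replicate number as a block, 17 members were lower and 1 higher in CPN-/- CRY1 against CPN-/-, where 1807 of all 14069 tested genes were lower and 1651 higher. None was called in CPN-/- CRY2 against CPN-/-. Between the derived lines, 4 were lower and 2 higher, where 1165 of all tested genes were lower and 1023 higher. The block together with removal of the length trend gave 13 lower and 8 higher there, where 2174 of all tested genes were lower and 2284 higher. For 3 named members, a called value had the opposite sign to the one reported when 1 CPN-/- library was left out. Without replicate 1, Mrpl54 was at -0.23 in CPN-/- CRY1. Without replicate 2, Mrpl11 was at 0.23 in CPN-/- CRY1 and Mrpl9 at 0.19 in CPN-/- CRY2. Leaving out 1 library at a time, the range was -0.28 to 0.23 for Mrpl11 and -0.18 to 0.19 for Mrpl9 in these comparisons. The cause of these changes was not tested. With 2 libraries per line, leaving out 1 leaves a line with a single library, which is assumed to vary like the others. The ranges of members called in such fits have no share over all tested genes beside them and are not a result about the members. The same holds for the counts at an adjusted p under 0.01 and for those that leave out some members.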
